A study of Mus musculus with 16 samples.

Results

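A set of 9 blood clotting genes was examined in libraries labelled as microglia. They came from mice with experimental autoimmune encephalomyelitis (EAE), a model of multiple sclerosis, and from control mice. The set was chosen by gene symbol from the 21878 mRNAs of the deposited tables, with the EAE and PBS values of these genes already known: F10, the 3 fibrinogen chain genes Fga, Fgb and Fgg, and the genes F3, F5, Plat, Thbd and Tfpi. The EAE against PBS values of these 9 genes are therefore given as a description, without a test. Both groups were WT female C57BL/6 mice, 8 weeks old, with 8 mice and 8 libraries each. The EAE mice were immunized with the myelin oligodendrocyte glycoprotein peptide MOG35-55 in complete Freund's adjuvant and given pertussis toxin, and the PBS mice received phosphate-buffered saline. Whether the PBS mice also received adjuvant or toxin is not given in the sources used here, so the peptide, the adjuvant, the toxin and the disease cannot be told apart. In the labels the last residue of the peptide runs from 55 in EAE 1 to 62 in EAE 8, while the study's methods name only MOG35-55. By the sources used here, brains were taken at the peak of disease and CD11b+/CD45int cells were sorted as microglia. Ribosomal RNA was removed before stranded libraries were made.

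Clotting starts when tissue factor, the product of F3, meets blood and forms a complex that activates factor X, the product of F10. Activated factor X, helped by its cofactor factor V, turns prothrombin into thrombin, and thrombin cleaves fibrinogen, which is built of the alpha, beta and gamma chains encoded by Fga, Fgb and Fgg, into fibrin. Tissue factor pathway inhibitor (Tfpi) stops the first step, thrombomodulin (Thbd) turns thrombin towards the anticoagulant protein C pathway, and tissue plasminogen activator (Plat) starts the breakdown of fibrin. The liver is the main source of fibrinogen and factor X in blood. In the brain, astrocytes are rich in tissue factor, endothelial cells carry thrombomodulin, and fibrin that leaks into EAE lesions is a ligand of the microglial integrin CD11b/CD18.

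The 3 fibrinogen genes lie side by side on chromosome 3 of GRCm38. Fgg occupies 83007724 to 83015049 on the plus strand, Fga 83026076 to 83033627 on the plus strand, and Fgb 83040141 to 83049863 on the minus strand. F10 lies on chromosome 8, from 13037308 to 13056676 on the plus strand, 1499 bp from F7, the gene of the factor that binds tissue factor. The sequence before the RefSeq start is shown for these 4 genes because the fibrinogen genes are known to be transcribed together in liver while their counts here, given further on, differed. The windows are chr3:83049864-83050113 on the minus strand for Fgb, chr3:83007474-83007723 on the plus strand for Fgg and chr8:13037058-13037307 on the plus strand for F10, each 250 bases long, 5′ to 3′. For Fga the 30 bases of chr3:83026098-83026127 on the plus strand are shown, since GENCODE starts Fga upstream of the RefSeq start and places these bases in its first exon. Capitals mark matches to GTTAAT, a half-site of the liver factor HNF1, or to CTGGGAA, an interleukin-6 response element, on either strand.
Fgb: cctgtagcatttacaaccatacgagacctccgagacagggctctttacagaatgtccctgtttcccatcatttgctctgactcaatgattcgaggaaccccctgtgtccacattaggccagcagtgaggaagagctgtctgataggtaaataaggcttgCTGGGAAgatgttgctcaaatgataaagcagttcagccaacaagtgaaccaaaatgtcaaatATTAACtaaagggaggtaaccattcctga
Fgg: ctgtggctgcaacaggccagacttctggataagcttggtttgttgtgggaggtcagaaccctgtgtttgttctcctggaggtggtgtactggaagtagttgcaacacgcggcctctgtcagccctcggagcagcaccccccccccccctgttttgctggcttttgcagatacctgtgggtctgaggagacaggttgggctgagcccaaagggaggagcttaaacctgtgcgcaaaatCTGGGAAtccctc
Fga: ccaagggtgatgATTAACctcctgccggtt
F10: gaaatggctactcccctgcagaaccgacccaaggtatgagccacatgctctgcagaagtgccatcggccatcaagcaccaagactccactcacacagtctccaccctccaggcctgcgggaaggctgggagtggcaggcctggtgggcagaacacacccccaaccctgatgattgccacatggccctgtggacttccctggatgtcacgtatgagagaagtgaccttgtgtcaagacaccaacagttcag
The GTTAAT motif matched the minus strand 43 bases before the start of Fga and 29 bases before that of Fgb. The CTGGGAA motif matched 91 bases before the start of Fgb and 13 bases before that of Fgg. Neither motif matched in the window of F10, F3 or F5, and CTGGGAA matched 1 of the 2 Tfpi windows. Of all 32851 RefSeq windows of the same length, 6.43% held GTTAAT and 9.1% held CTGGGAA, so these matches describe the letters only. The table held no window for Thbd or Plat.

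Library totals ran from 24587443 to 30244215 counts in EAE and from 26031889 to 34184576 in PBS. The libraries numbered 5-8 detected more mRNAs (EAE 17955 to 18042, PBS 17831 to 17922) than those numbered 1-4 (EAE 17565 to 17644, PBS 17405 to 17609), and the labels name no batch. The label microglia was checked against marker lists, as the summed FPKM of each list. The 12 microglial markers summed to between 163 and 298 in every library, led by C1qb and C1qa, whereas 8 astrocyte markers summed to between 1166 and 1782, 8 neuronal markers to between 825 and 1062 and 8 oligodendrocyte markers to between 844 and 1173. In every library the astrocyte, neuronal and oligodendrocyte sums each exceeded the microglial sum, though the lists differ in their genes. The libraries thus held abundant transcripts of other brain cells, and the values below are not levels of microglia alone. Of the hepatocyte list, Alb averaged an FPKM of 0.0302, and Ahsg, Serpina1a and Serpina1b were at 0 in every PBS library and above 0 in 7, 1 and 5 EAE libraries, with at most 4 counts in any. In bulk libraries, fewer cells of a type and less RNA per cell cannot be told apart.

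The 9 genes covered a wide range of levels. By mean FPKM over the 16 libraries, which corrects for gene length, F3 came first with 32.3, followed by Plat with 19.6, Thbd with 8.11, Tfpi with 0.800, F5 with 0.618, F10 with 0.131, Fga with 0.0630, Fgg with 0.0316 and Fgb with 0.00903. F3 exceeded Plat, Plat exceeded Thbd, Thbd exceeded Tfpi and F5 exceeded F10 in 16 of 16 libraries each. Tfpi exceeded F5 in 13 libraries, with overlapping ranges. F10 exceeded Fga in 12 libraries and was equal to it in 2, and the order among Fga, Fgg and Fgb rested on few counts and did not hold beyond their spread. In counts, the genes averaged from 1726 per library for F3 down to 9.69 for F10, 7.38 for Fga, 1.94 for Fgg and 0.438 for Fgb.

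**Figure D1:**
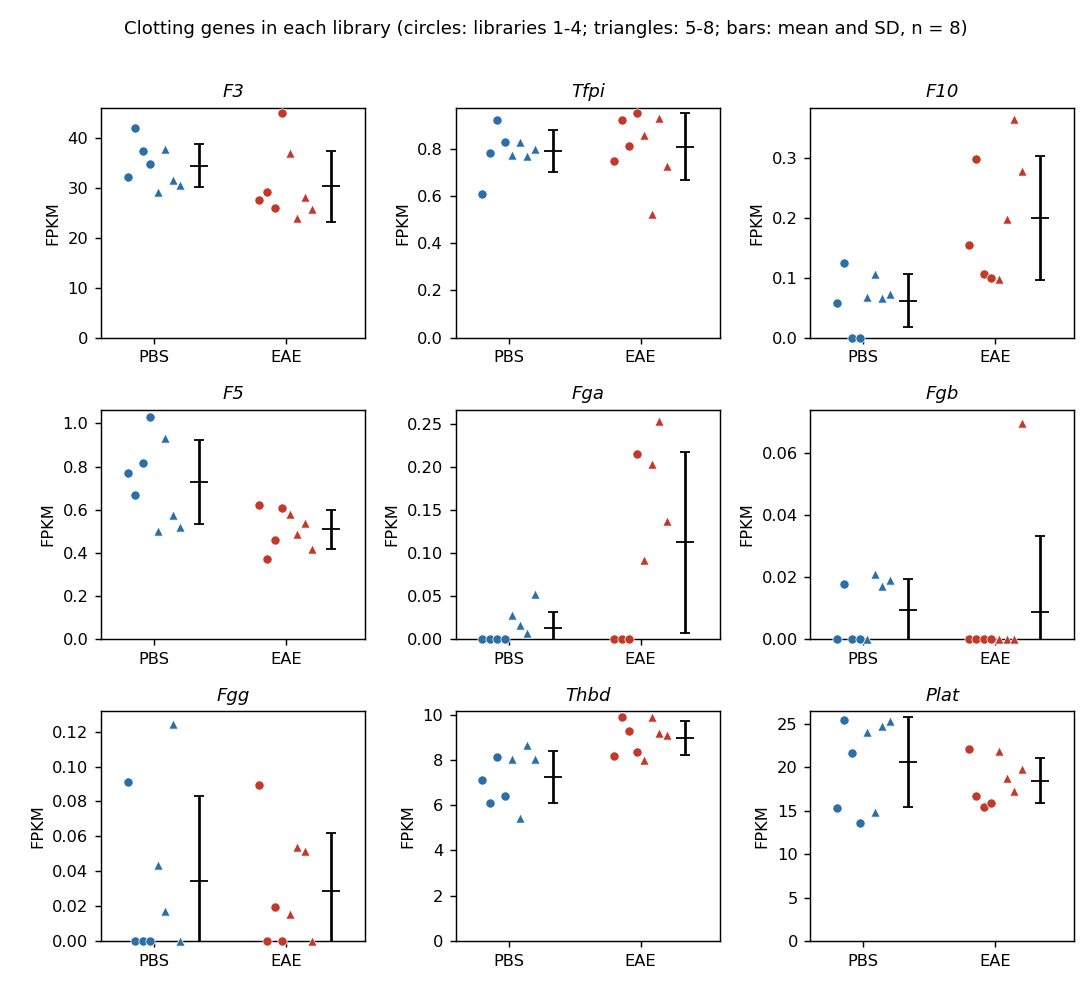
FPKM of the 9 clotting genes in each library, PBS in blue and EAE in red, with circles for libraries 1-4 and triangles for libraries 5-8. Black bars are the mean and SD of 8 libraries, drawn no lower than 0. The EAE and PBS ranges of every gene overlap, and the Fga values above 0.0528 are all in EAE.

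Across all mRNAs, the edgeR quasi-likelihood test called 21 of 17885 tested mRNAs at an adjusted p under 0.05 and an absolute log2 fold change above 1, which is 0.117%, with 17 higher (0.0951%) and 4 lower (0.0224%) in EAE. None of the 8 clotting genes with a fit was called. On the adjusted p alone, 433 mRNAs (2.42%) passed and again none of the 8. Since this contrast was known when the genes were chosen, nothing further is read from that count.

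Tissue factor transcripts were abundant in both groups. F3 (chromosome 3, 121723537 to 121735048, plus strand) had FPKM values of 23.8, 27.9 and 44.8 as the lowest, median and highest in EAE and of 29.2, 33.4 and 41.9 in PBS. Of the EAE libraries, 5 lay below the lowest PBS library, while EAE 4 lay above the highest. The means were 30.3 ± 7.09 (SD, n = 8) in EAE and 34.4 ± 4.31 in PBS, and the fitted log2 fold change was -0.24 (SE 0.11). Leaving out EAE 4 moved it to -0.34. Tfpi (chromosome 2, 84432855 to 84476775, minus strand), the inhibitor of this step, had 62, 99 and 117 counts in EAE and 71, 112 and 118 in PBS. Its mean FPKM was 0.811 ± 0.142 in EAE and 0.790 ± 0.0892 in PBS. The fitted log2 fold change was -0.01 (SE 0.13), and its sign turned with the scaling, to 0.04 when library totals replaced TMM factors.

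F10, which encodes the zymogen of the first protease of the common pathway, had 11, 21, 7, 7, 8, 14, 27 and 19 counts in EAE 1 to 8 and 4, 11, 0, 0, 6, 8, 6 and 6 in PBS 1 to 8. As FPKM, the lowest, median and highest values were 0.0982, 0.176 and 0.365 in EAE and 0, 0.0667 and 0.124 in PBS. Of the EAE libraries, 5 lay above the highest PBS library (PBS 2), and 6 PBS libraries lay below the lowest EAE library. PBS 3 and PBS 4 had no count. With 3 counts taken as the limit of a count of 0, this allows an FPKM of up to 0.0410 in PBS 3 and 0.0388 in PBS 4. Summed over the groups, 114 counts stood against 41. The mean FPKM was 0.200 ± 0.103 in EAE and 0.0616 ± 0.0442 in PBS, and the fitted log2 fold change was 1.61 (SE 0.52). It ran from 1.42 without EAE 7 to 1.84 without PBS 2. F10 was higher in EAE in both sets of libraries, at 46 against 15 counts in libraries 1-4 and 68 against 26 in libraries 5-8, and the fitted values were 1.70 and 1.55. In 10 of the 16 libraries F10 had fewer than 10 counts.

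F5 (chromosome 1, 164151838 to 164220277, plus strand), the gene of the cofactor of activated factor X, ran the other way. FPKM values were 0.371, 0.512 and 0.620 in EAE and 0.502, 0.719 and 1.03 in PBS. Of the EAE libraries, 4 lay below the lowest PBS library, and 5 PBS libraries lay above the highest EAE library. The means were 0.510 ± 0.0905 and 0.727 ± 0.194, and the fitted log2 fold change was -0.56 (SE 0.16). The difference was wider in libraries 1-4 (-0.75) than in libraries 5-8 (-0.35), a difference that was not tested. PBS 5, PBS 7 and PBS 8 had FPKM values of 0.502, 0.575 and 0.519, within the EAE range, and against EAE 6, EAE 7 and EAE 8 the fitted value was -0.17. F5 overlaps the lincRNA Gm16548 on the other strand and the processed pseudogene Gm16588, and whether counting used the strand is not given in the sources used here.

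Fga, the gene of the fibrinogen alpha chain, was at 0 in some libraries of each group and not in others. EAE 1 to 8 had 0, 0, 0, 24, 12, 23, 30 and 15 counts, and PBS 1 to 8 had 0, 0, 0, 0, 4, 2, 1 and 7. The 5 EAE libraries above 0 all lay above every PBS library, whereas EAE 1, EAE 2 and EAE 3 lay at 0 with PBS 1 to 4. At the 3-count limit a count of 0 allowed an FPKM of up to between 0.0264 and 0.0284 in EAE 1 to 3 and between 0.0211 and 0.0268 in PBS 1 to 4. The mean FPKM was 0.113 ± 0.105 in EAE and 0.0131 ± 0.0191 in PBS, and the fitted log2 fold change was 2.94 (SE 0.90), running from 2.66 without EAE 7 to 3.67 without PBS 8. In libraries 5-8 every library had a count, 80 in EAE against 14 in PBS, with a fitted value of 2.64. In libraries 1-4, EAE 4 held all 24 counts. The pattern of 9 libraries above 0 and the same 7 at 0 was shared by 4 other mRNAs of the table, Awat1, Pfpl, Psg19 and Tmprss11d, the highest library of which had 3 to 27 counts. The part that the numbering of the libraries played in the Fga values was not tested beyond the values within each set.

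The other fibrinogen chains did not follow Fga. Fgb had 3 counts in EAE, all in EAE 8, and 4 in PBS, 1 each in PBS 2, PBS 6, PBS 7 and PBS 8. It stayed under the filter of 16 counts and has no fit, and no library exceeded 3 counts. Fgg had 5, 0, 1, 0, 1, 3, 3 and 0 counts in EAE 1 to 8 and 5, 0, 0, 0, 3, 1, 9 and 0 in PBS 1 to 8, which sum to 13 and 18. Its fitted log2 fold change was -0.30 (SE 0.89), and it turned to 0.39 without PBS 7. Where Fga was highest, in EAE 7 with 30 counts, Fgg had 3 counts and Fgb none. In EAE 4, with 24 counts of Fga, both others were at 0. Fgg overlaps the lincRNA Gm30097 on the other strand. Of the 3 fibrinogen genes, Fga alone had more than 10 counts in any library. Of the 12 hepatocyte markers, Ahsg (10 counts), Serpina1b (10 counts) and Serpina1a (2 counts) were detected in EAE libraries and not in PBS, and were not tested. Of the 9 tested, Ttr passed and was lower, and the others had no adjusted p under 0.05 in edgeR, with log2 fold changes of 1.22 for Apoh, 0.72 for Ambp, 0.08 for Apoa2, 0.01 for Apoa1, -0.05 for Trf, -0.10 for Alb, -0.38 for Cyp2e1 and -0.47 for Hpx. The part of liver transcripts in the Fga values was not tested.

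**Figure D2:**
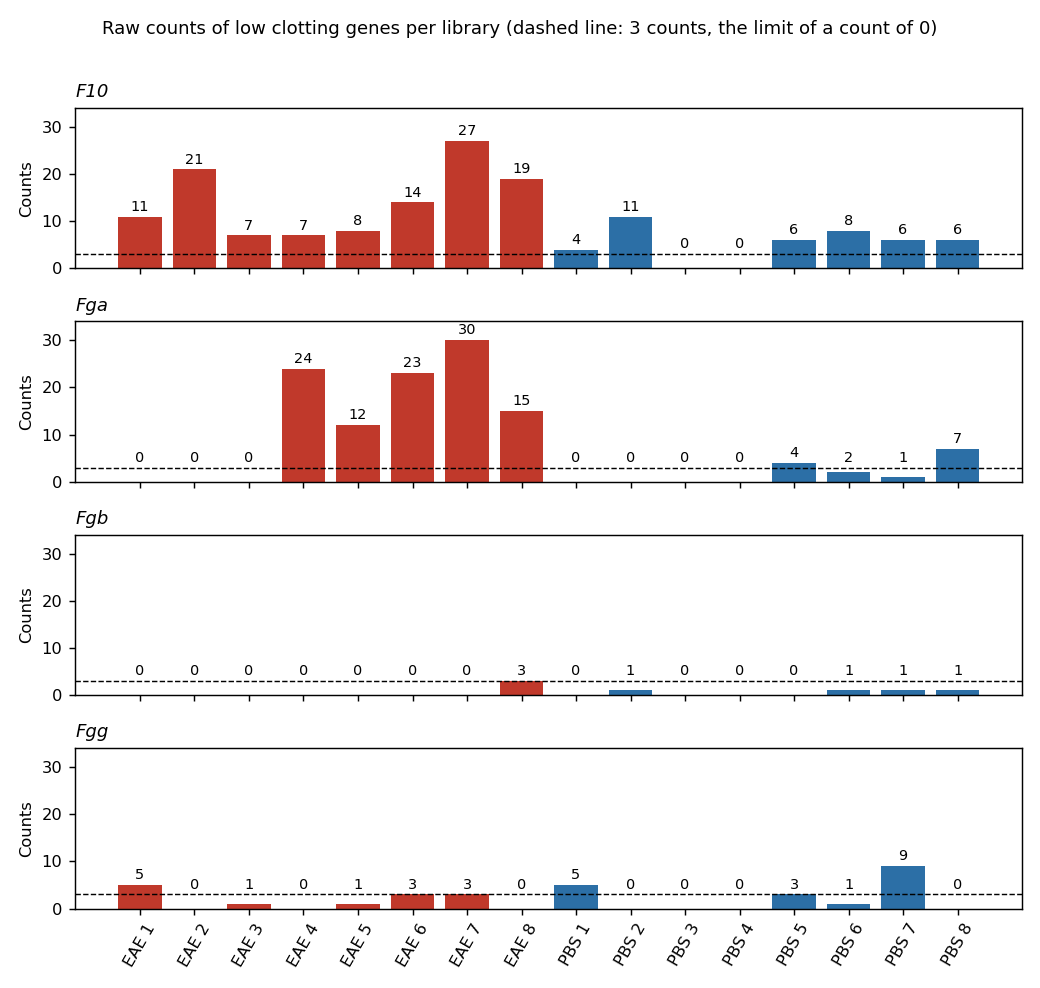
Raw counts of F10, Fga, Fgb and Fgg in each library, EAE in red and PBS in blue, with the count written above each bar. The dashed line marks 3 counts, the limit of a count of 0. Fga exceeds 10 counts in EAE 4 to EAE 8, where Fgb and Fgg have 0 to 3 counts.

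Thbd and Plat act after thrombin has formed. Thbd (chromosome 2, 148404466 to 148408188, minus strand) had FPKM values of 7.99, 9.15 and 9.92 in EAE and 5.41, 7.57 and 8.65 in PBS. Of the EAE libraries, 5 lay above the highest PBS library, and 4 PBS libraries lay below the lowest EAE library. The means were 8.99 ± 0.747 and 7.24 ± 1.16, and the fitted log2 fold change was 0.26 (SE 0.09), with a range of 0.20 to 0.30 when single libraries were left out. Plat (chromosome 8, 22757727 to 22782844, plus strand) had FPKM values of 15.5, 18.0 and 22.2 in EAE and 13.6, 22.9 and 25.5 in PBS. The PBS libraries spread to both sides of the EAE range, with 3 below and 4 above it. The means were 18.5 ± 2.60 and 20.7 ± 5.19, and the fitted log2 fold change was -0.21 (SE 0.13). Against the median log2 fold change of all tested mRNAs, 0.00915, F10 and Fga stood furthest on the higher side of the set and F5 furthest on the lower side.

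**Figure D3:**
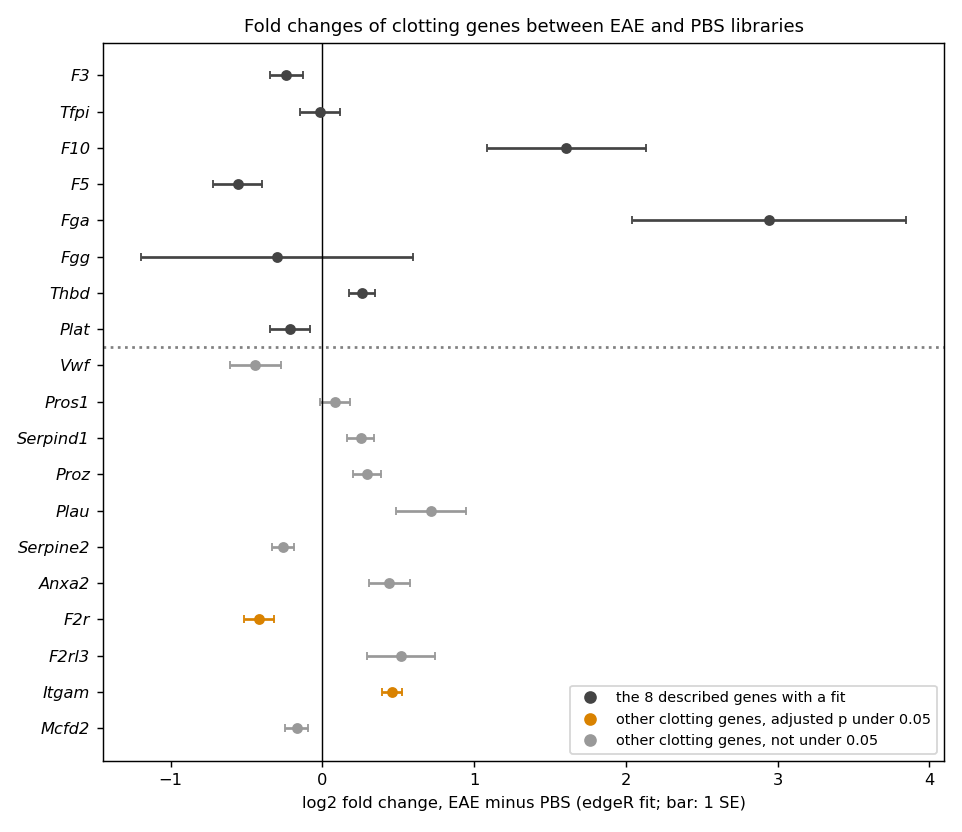
Fitted log2 fold change (EAE minus PBS, edgeR) of the 8 clotting genes with a fit, above the dotted line, and of 11 other clotting genes, below it, with bars of 1 SE. F10 (1.61) and Fga (2.94) lie furthest to the right, the bars of Fga, Fgg and F10 are the widest, and among the others Itgam (0.46) and F2r (-0.42) have an adjusted p under 0.05.

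To place these values, 49 other genes of clotting, anticoagulation, fibrinolysis, clotting receptors and factor maturation were taken as lists by function. Of these, 45 passed the filter, 33 with a fitted value above 0 and 12 below, where 52.7% of all mRNAs lay above 0. None was called with the fold limit, 2 passed the adjusted p alone (1 higher against a background of 0.66% and 1 lower against 1.76%), and 11 had an unadjusted p under 0.05 against a background of 17.4% of all mRNAs, 7 higher (background 7.92%) and 4 lower (background 9.52%). DESeq2 likewise called none, with 6 under the adjusted p alone and 11 under the unadjusted p. The backgrounds above are from edgeR. The share of all mRNAs that passed in DESeq2 is not given, so its numbers here and below stand without a background. The median log2 fold change of the 45 was 0.20 beside 0.00915 over all mRNAs.

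Among the 9 clotting receptors, Itgam rose and F2r fell. Itgam, the CD11b chain of the integrin that binds fibrin on microglia and also an antigen of the sort, had FPKM values of 7.39 to 9.61 in EAE and 4.94 to 6.56 in PBS, without overlap, as in 0.263% of all mRNAs. Its log2 fold change was 0.46 (SE 0.07, adjusted p = 0.0018 in the edgeR quasi-likelihood test), and it passed with each library left out. Over the alternatives its adjusted p ran from 6.46e-08 to 0.0934. F2r, the thrombin receptor PAR1, had a mean FPKM of 2.52 ± 0.298 in EAE and 3.24 ± 0.433 in PBS, with a log2 fold change of -0.42 (SE 0.10, adjusted p = 0.0277). It passed in 10 of 16 fits with 1 library left out, reaching adjusted p = 0.0706 without PBS 2, and lost the call without EAE 1, EAE 2, EAE 6, PBS 2, PBS 5 or PBS 7. Over all its alternatives the adjusted p ran from 0.000887 to 0.383. The lowest came within EAE 6, EAE 7 and EAE 8 against PBS 5, PBS 7 and PBS 8. F2rl3, the thrombin receptor PAR4, had a value of 0.52 (adjusted p = 0.236).

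None of the 10 fibrinolysis genes passed the adjusted p in edgeR, and 4 had an unadjusted p under 0.05. DESeq2 passed 3 of them on the adjusted p, Serpine2 (0.0168), Anxa2 (0.0338) and Plau (0.0435). Plau, the urokinase that activates plasminogen beside Plat, had a mean FPKM of 1.05 ± 0.340 in EAE and 0.617 ± 0.203 in PBS, with a log2 fold change of 0.72 (SE 0.23, adjusted p = 0.102 in edgeR). Anxa2, a cell surface docking protein of Plat and plasminogen, had a value of 0.44 (adjusted p = 0.0842 in edgeR). Serpine2, a protease inhibitor of thrombin and plasminogen activators that was the most abundant gene of these lists at a mean FPKM of 97.3 ± 14.0 in EAE and 112 ± 7.12 in PBS, had a value of -0.26 (adjusted p = 0.0542 in edgeR). It passed in 7 of its 31 alternatives, without EAE 4 or EAE 5 among them, with an adjusted p from 1.06e-07 to 0.393. For Plau, within EAE 6, EAE 7 and EAE 8 against PBS 5, PBS 7 and PBS 8, the edgeR fit passed both limits at 1.30 (SE 0.28, adjusted p = 0.00133). These 6 libraries were a set known from an earlier analysis of these data, so that this p is no independent test. The lowest adjusted p of Serpine2 came from the same 6 libraries. Over all alternatives the adjusted p of Plau ran from 0.00133 to 0.732.

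Of the coagulation factors, 11 of 13 were tested and none passed the adjusted p in edgeR or DESeq2, with 1 at an unadjusted p under 0.05 in edgeR. Vwf, the endothelial and platelet adhesion protein that carries factor VIII, had a value of -0.44 (adjusted p = 0.177 in edgeR). The neighbour of F10, F7, had an FPKM of 0.0275 to 0.207 in EAE and of 0.0131 to 0.234 in PBS, with a value of 0.47 (SE 0.49, adjusted p = 0.672). It was named after its values were seen. Of the anticoagulants, 8 of 10 were tested and none passed the adjusted p in edgeR, with 2 at an unadjusted p under 0.05, while DESeq2 passed Proz (0.0429). Pros1, the cofactor of activated protein C, was the most abundant at 0.08 (adjusted p = 0.709), while Proz, the cofactor of an inhibitor of activated factor X, had 0.29 (adjusted p = 0.0941 in edgeR, from 0.0239 to 0.559 over the alternatives, with a pass without EAE 4 or EAE 5) and Serpind1, heparin cofactor II, 0.25 (adjusted p = 0.136). Within EAE 6, EAE 7 and EAE 8 against PBS 5, PBS 7 and PBS 8, Pros1 turned to -0.29 (adjusted p = 0.00728 in edgeR). Serpind1 (0.36, adjusted p = 0.00894) and Vwf (-0.48, adjusted p = 0.00173) also passed the adjusted p there in edgeR. As that set was known from an earlier analysis, these are no independent tests. Serpind1 also passed without EAE 4 (adjusted p = 0.0221 in edgeR). The 7 genes of factor maturation had a median of -0.05 and none passed in edgeR or DESeq2, with 1 at an unadjusted p under 0.05 in edgeR. Mcfd2, which with Lman1 carries factors V and VIII out of the endoplasmic reticulum, had -0.17 (adjusted p = 0.252).

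How the 5 clotting genes with a mean of at least 20 counts varied between mice of the same group is a measure that the choice of the genes did not use. Deviations of log2 CPM from the group mean were correlated over the 16 libraries for the 10 pairs. The pair with the largest coefficient was F5 and Thbd, with Pearson's r = -0.68 (permutation p = 0.0113, adjusted p = 0.0903) and Spearman's rho = -0.64 (adjusted p = 0.0665). Without PBS 4 and PBS 6, the libraries farthest from the median of F5, r was -0.54. F3 and Tfpi had r = 0.57 (permutation p = 0.0414, adjusted p = 0.103) and rho = 0.74 (permutation p = 0.00242, adjusted p = 0.0242), and r = 0.58 without EAE 4 and PBS 2. F3 and Thbd had r = -0.52 (permutation adjusted p = 0.0903, rho = -0.54) and F3 and F5 r = 0.49 (permutation adjusted p = 0.103, rho = 0.60). By Pearson's r no pair passed the adjusted p and 4 passed unadjusted. Without PBS 3, 2 pairs passed.

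The same deviations were then set against the summed FPKM of the 12 marker lists, in 60 pairs chosen after the data were seen, of which 12 had an adjusted p under 0.05, and 8 when deviations were taken within the 4 combinations of group and library set. These 8 held 7 of the 12 and the pair of F5 with the platelet markers (r = -0.90, adjusted p = 0.00540 by permutation), which had r = -0.58 (adjusted p = 0.0900) over the groups alone. F3 varied with the astrocyte markers (r = 0.84, permutation p = 0.00147, adjusted p = 0.0116, rho = 0.74). It was r = 0.84 within EAE, 0.93 within PBS and 0.89 without EAE 5 and EAE 6, the libraries farthest from the median. F3 also varied with the oligodendrocyte (r = 0.81), fibroblast and meningeal (0.80) and choroid plexus (0.71) lists, of which the choroid plexus pair had an adjusted p = 0.0522 by permutation within those combinations. F5 varied with the choroid plexus epithelium markers, which are dominated by Ttr (r = 0.78, permutation p = 0.00194, adjusted p = 0.0116, rho = 0.78), with 0.67 without PBS 4 and PBS 6. Within those combinations, r for F5 was 0.73 with an adjusted p = 0.0946 by permutation. Thbd varied the opposite way with these markers (r = -0.83, permutation p = 0.00058, adjusted p = 0.00960, rho = -0.74), with -0.70 without PBS 4 and PBS 6. Plat varied with the endothelial markers (r = 0.77, permutation p = 0.00178, adjusted p = 0.0116, rho = 0.75) and with the neutrophil markers (r = 0.75), with 0.59 and 0.67 without the 2 farthest libraries. Within the combinations the neutrophil pair had an adjusted p = 0.0581 by permutation. Within EAE alone the coefficients were 0.51 for F5, -0.52 for Thbd and 0.42 for Plat with endothelial markers, and within PBS 0.89, -0.91 and 0.92. The choroid plexus markers summed to 101, 104 and 102 in PBS 5, PBS 7 and PBS 8, and to 143 to 241 in the other PBS libraries. The permutations did not keep PBS 5, PBS 7 and PBS 8 apart from the other PBS libraries. Thbd did not pass with the endothelial list (r = 0.35, adjusted p = 0.344 by permutation). That coefficient was -0.72 within EAE and 0.76 within PBS. The hepatocyte list, which shares Ttr with the choroid plexus list and is otherwise led by Trf, gave r = 0.70 for F3, 0.73 for F5 and -0.85 for Thbd, and Thbd with the oligodendrocyte list gave -0.59. Within the combinations the adjusted p by permutation was 0.131 for F5 with the hepatocyte list and 0.0581 for Thbd with the oligodendrocyte list. Tfpi passed with no list.

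**Figure D4:**
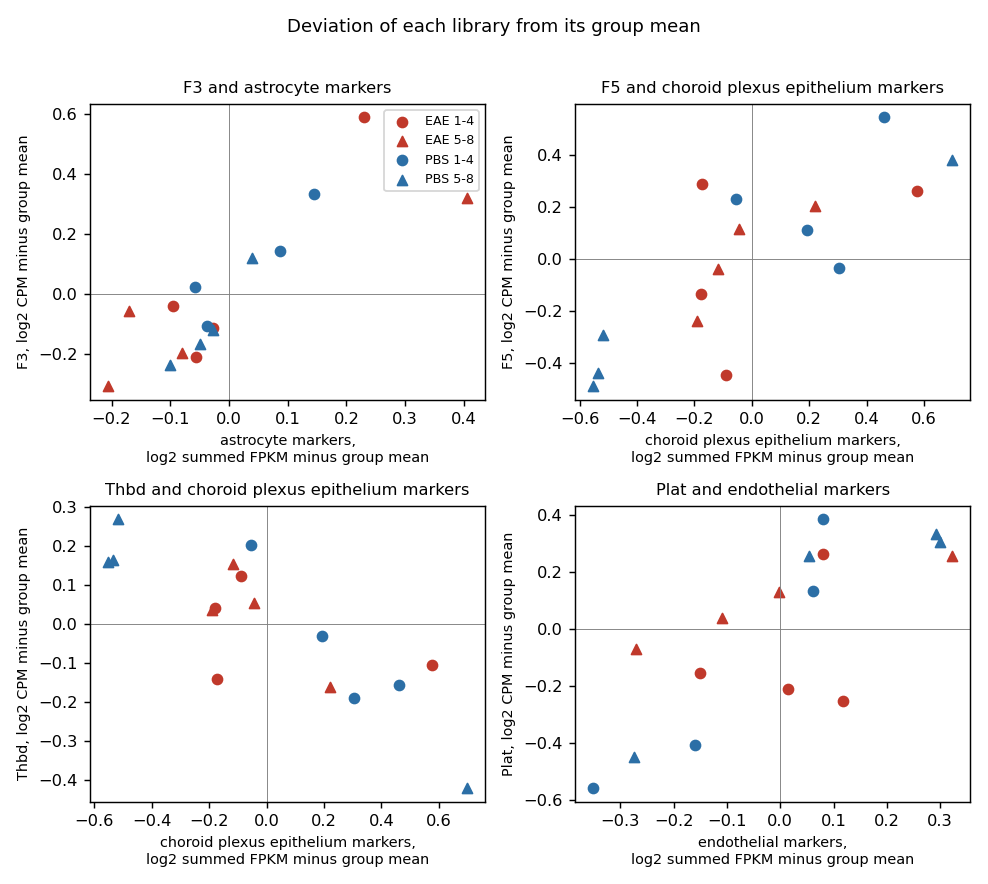
Deviation of F3, F5, Thbd and Plat (log2 CPM, vertical) from the group mean against that of a marker list (log2 summed FPKM, horizontal), 1 point per library, EAE in red and PBS in blue, circles for libraries 1-4 and triangles for 5-8. Coefficients over the 16 libraries are 0.84, 0.78, -0.83 and 0.77. PBS 5, PBS 7 and PBS 8 lie together at the low end of the choroid plexus markers.

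The markers of these lists were also read between the groups, gene by gene, where 2.42% of all mRNAs passed the adjusted p. The choroid plexus markers summed to an FPKM of 78.2 to 133 in EAE and 101 to 241 in PBS, and 1 of 9 passed, Ttr, whose log2 fold change was -0.88 (adjusted p = 0.0163 in edgeR). The 8 astrocyte markers summed to between 1166 and 1782 in EAE and between 1357 and 1610 in PBS, and 1 of 8, Gfap, passed and was higher (0.50, adjusted p = 0.0312 in edgeR). The other 7 were fitted lower, 5 of them with an unadjusted p under 0.05, and the median of the 8 was -0.21. The 12 neutrophil markers summed to 49.98 to 101 in EAE and 19.5 to 57.7 in PBS. Of these, 4 of 12 were called higher with the fold limit (background 0.0951%), S100a8, S100a9, Ngp and Ltf. All 12 were fitted higher, with a median of 1.24, and 7 had an unadjusted p under 0.05 in edgeR (background 7.92%). The 12 endothelial markers summed to 60.4 to 91.2 in EAE and 56.0 to 87.8 in PBS, and none of 12 passed. The 8 platelet markers summed to 4.92 to 8.58 in EAE and 5.22 to 8.29 in PBS, and none passed. The 12 microglial markers summed to 178 to 298 in EAE and 163 to 278 in PBS, and none passed. Of these 12, 11 were fitted higher and 1 lower, with a median of 0.16. The higher ones held 2 with an unadjusted p under 0.05 in edgeR, against a background of 7.92%. By contrast, 2 of 8 neuronal markers, Syt1 and Gad1, and 1 of 10 mural markers, Vtn, passed and were lower. No gene of the monocyte and macrophage, fibroblast and meningeal or oligodendrocyte lists passed. The part of these lists in the EAE against PBS values of F3, F5, F10, Thbd, Plat and Itgam was not tested.

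The mRNAs most like each gene by the same deviations were looked up among 13951 mRNAs with a mean of at least 50 counts, as a description. For F3 they were Bmpr1b (r = 0.96), Htra1 (0.96) and Gjb6 (0.95), the last a gap junction gene of astrocytes. For Plat they were Abca1 (0.96), Nectin1 (0.92) and Ankrd50 (0.92). For Thbd they were Spidr (0.92), Alox15 (0.89) and Adamts5 (0.88), for F5 Cdk5rap1 (0.90), Srr (0.89) and Ube4a (0.89), and for Tfpi Rpl36a (0.81), Pfdn1 (0.80) and Abcd3 (0.79). All rest on the same 16 libraries. F10 and the fibrinogen genes had too few counts for such a comparison.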

How the data were processed

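By the authors' account, RNA of sorted CD11b+/CD45int cells was sequenced from 8 EAE and 8 PBS mice, 1 library per mouse. The authors aligned filtered reads to GRCm38 with HISAT2 2.1.0, and the deposited counts per gene symbol were made, per the labels, with HTSeq 0.11.2. The strand setting is not given in the sources used here. The authors' FPKM values are the same counts divided by gene length and library total. The labels also list DESeq2 1.22.2.

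From the counts, edgeR 4.0.16 (R 4.3.3; TMM, quasi-likelihood test, mRNAs with at least 16 counts in all, Benjamini-Hochberg) was fitted to all 16 libraries, with the study's limits of an adjusted p under 0.05 and an absolute log2 fold change above 1. On simulated data with 200 of 17885 mRNAs changed by 1.5 on the log2 scale it recovered 97.5%, with 0.51% false calls. The changed mRNAs were drawn only from those with more total counts than F10, Fga, Fgg or Fgb. The recovery therefore does not cover these genes. Simulated libraries were drawn independently from the same mean profile, without sets of libraries. The rate of false calls thus does not cover such sets. Correlations used log2 CPM (prior count 2), 100000 permutations within groups, two-sided. The limit of a count of 0 was 3 counts and, like all count limits here, covers counting error only. Gene positions are from GENCODE M21 and upstream sequences from RefSeq (GRCm38.p6), which matched 7 of the 9 genes. Alternatives were DESeq2 1.42.0, limma 3.58.1 on log2(FPKM + 0.1) and log2(FPKM + 1), other scalings and filters, blocks, sets of libraries and leaving out each library.

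The genes and lists were chosen with earlier results of these data known. Genes outside the set were named if called, with an unadjusted p under 0.05, or the most abundant of their list (a gene that met this rule is not reported here), and for likeness the 3 highest coefficients were taken.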

Additional observations from a re-analysis of the deposited data

Results flagged for a closer look

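In 42 groups of 8 libraries tested by Dixon's ratio (the gap of an extreme library to its neighbour over the whole range), 2 had a library far from the others. For normally distributed values chance flags about 1 in 20 such groups. Fgb in EAE had a ratio of 1, since EAE 8 held 3 counts (FPKM 0.0695) and the other EAE libraries none. With all others at 0 the ratio is 1 for any count in EAE 8, so that rate does not apply to Fgb. Anxa2 in PBS had a ratio of 0.716, with an FPKM of 11.5 in PBS 2 and 7.88 in the next library. Without PBS 2 the log2 fold change of Anxa2 was 0.55 (adjusted p = 0.0344 in edgeR) in place of 0.44 (0.0842). Over all alternatives its adjusted p ran from 7.70e-07 to 0.702. The lowest came within EAE 6, EAE 7 and EAE 8 against PBS 5, PBS 7 and PBS 8.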

How the results depend on the processing

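Of the clotting genes with a fit, F3, F10, F5, Fga, Thbd and Plat kept the direction of their fold change under every alternative run, while Tfpi and Fgg turned sign. Values that moved beyond the spread were F10 at 0.17 and F5 at -0.19 with limma on log2(FPKM + 1), F5 at -0.17 within EAE 6, EAE 7 and EAE 8 against PBS 5, PBS 7 and PBS 8, and Fga at 0.75 and 0.13 with limma on log2(FPKM + 0.1) and log2(FPKM + 1). A pseudocount above the level of F10 and Fga pulls their values towards 0 by construction. Within libraries 1-4 Fga was 5.65, where all PBS libraries were at 0, so that this value is no bound. With filterByExpr, F10, Fga and Fgg did not pass the filter.

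The 17 mRNAs called higher and 4 called lower became 118 and 315 on the adjusted p alone, 107 and 74 within the 6 libraries named above, 5 and 1 within the other 10, 5 and 2 within libraries 1-4 and 5 and 0 with limma on log2(FPKM + 1). Those higher were 34 with a term for those 6 libraries and 6 within libraries 5-8, and those lower were 1 with filterByExpr, 1 with library totals and 2 with limma on log2(FPKM + 0.1). Leaving out 1 library gave 11 (without EAE 8) to 45 (without EAE 4) higher and 1 to 7 lower. The split into libraries 1-4 and 5-8 was chosen after seeing the data. The cause of these shifts was not tested. Of the other clotting genes, 1 was called higher within the 6 libraries (Plau), and on the adjusted p alone 1 was higher and 1 lower. Itgam lost its call within libraries 1-4 (adjusted p = 0.0934), within libraries 5-8 (0.0749) and within the other 10 (0.0631), fits with fewer libraries. F2r lost its call in 12 of 31 alternatives. Between 0 and 2 gene pairs correlated when 1 library was left out.

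Correlations of same-numbered libraries ran from -0.121 to 0.382. EAE 4, EAE 7 and EAE 8 correlated best with the PBS library of their own number. EAE 1, EAE 2, EAE 3, EAE 5 and EAE 6 correlated best with another. Whether the replicate numbers pair the libraries was not tested. With a replicate block 1 mRNA was called lower, F10 was 1.74 and Fga 3.01.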
